A study of Mus musculus with 4 samples.

Results

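The 10 genes described here encode the lipases that empty the lipid droplet of an adipocyte (*Pnpla2*, *Lipe* and *Mgll*), a pair of proteins that regulate the first of these lipases (*Abhd5* and *G0s2*) and the coat proteins of the droplet (*Plin1*, *Plin2*, *Plin3*, *Plin4* and *Plin5*). They were taken by gene symbol, and all 10 were found among the 19030 genes of the expression table. RNA-seq had been done on inguinal white adipose tissue (ingWAT), the subcutaneous fat depot of the mouse groin, from control (Ctrl) and adipose-specific *Oct3*-deficient (cKO) mice, with 2 libraries per genotype. *Oct3* is the gene *Slc22a3*, a transporter that takes up norepinephrine, and the question put by the comparison is how the tissue differs after cold exposure when adipocytes lack it.

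Per the labels, all mice were C57BL/6, 3 months old and kept at 4°C. The study's methods give a somewhat younger age at use, and a cold challenge of weeks that began at a milder temperature before 4°C. Whether the labelled age is that at the start or the end of the cold challenge is not stated. Per the same methods, the Ctrl mice carried loxP-flanked *Oct3* alleles (*Oct3* fl/fl), and the cKO mice carried these alleles together with Adiponectin-Cre. The Adiponectin promoter directs Cre to adipocytes, so the other cells of the tissue keep the gene. Cold exposure was thus shared by both groups, and no library came from mice kept warm. The sources used here do not state how many mice went into a library, so p-values measure the spread between these libraries, which may be technical.

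Stored triglyceride is broken down in steps. Adipose triglyceride lipase, encoded by *Pnpla2*, releases the first fatty acid, hormone-sensitive lipase, encoded by *Lipe*, mainly cuts the diglyceride, and monoglyceride lipase, encoded by *Mgll*, completes the release of glycerol. ABHD5 activates adipose triglyceride lipase and G0S2 inhibits it. In resting adipocytes perilipin 1 holds ABHD5 at the droplet surface, and protein kinase A, switched on by norepinephrine through β-adrenergic receptors, phosphorylates perilipin 1 and hormone-sensitive lipase. These controls act largely on proteins, while the values below are transcript levels.

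Expression was given in FPKM, fragments scaled to transcript length and library size, so that levels of different genes can be set side by side. Read numbers are not given in the sources used here, and an estimate from how low FPKM values of short RNAs are spaced puts them at 17600000 to 18200000 per library. *Slc22a3* stood at 16.95 and 17.68 FPKM in the Ctrl libraries and at 9.07 and 9.50 FPKM in the cKO libraries. It was thus lower in both cKO libraries (log2 fold change -0.83 ± 0.066 SE, limma with Benjamini-Hochberg adjustment, adjusted p = 0.000439). Every log2 fold change sets cKO against Ctrl after adding 1 to each FPKM, and an adjusted p under 0.05 over all 12658 genes with a mean of at least 1 FPKM counted as past the threshold.

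The libraries also differed in cell type markers. Of 10 white or pan-adipocyte markers 8 were lower in cKO and none was higher, and their summed FPKM was 37630 to 39539 in Ctrl and 27699 to 28570 in cKO. Of 9 brown or beige adipocyte markers 8 were higher, with sums of 1542 to 1824 FPKM in Ctrl and 4092 to 4840 FPKM in cKO. Of 12 skeletal muscle markers 9 were tested and all 9 were lower, with sums of 1579 to 2350 FPKM in Ctrl and 8.22 to 10.3 FPKM in cKO, while the slow muscle myosin gene *Myh7* was at 0.04 FPKM or less in every library. Macrophage marker sums were 693 to 764 FPKM in Ctrl and 771 to 801 FPKM in cKO, with 1 of 7 markers higher and 3 lower. All 5 neutrophil markers tested of 6 (12.96 to 13.39 FPKM in Ctrl, 28.6 to 30.1 FPKM in cKO), all 5 B cell markers (202 to 227 FPKM, 322 to 364 FPKM) and 4 of 5 T cell markers (62.8 to 68.3 FPKM, 88.3 to 117 FPKM) were higher. Of the fibroblast or progenitor markers 4 of 5 were lower (831 to 985 FPKM, 470 to 502 FPKM), as were 2 of 4 endothelial markers (168 FPKM in both Ctrl libraries, 146 to 151 FPKM in cKO), and the 4 epithelial markers analysed (*Krt14* was not analysed here) summed to at most 0.65 FPKM in any library. In bulk tissue, fewer cells of a type and less RNA per cell cannot be told apart, and the part of these markers in the results below was not tested except where a value is given.

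All 10 genes passed the filter on low values. The genes past the threshold were both regulators and 4 of the 5 perilipins, and none of the 3 lipases. In cKO *G0s2*, *Plin2*, *Plin3* and *Plin5* rose, *Abhd5* and *Plin4* fell, and *Pnpla2*, *Lipe*, *Mgll* and *Plin1* did not pass the test. Of all genes tested 25.8% passed, 12.0% as higher and 13.8% as lower. In a fit of genes with a mean of at least 5 FPKM, which kept all 10, 1458 were higher and 1410 lower of 8784, a larger share. Thus 6 of 10 stands against 25.8% of the table, and against that larger share at 5 FPKM or more. The groups did not overlap for these 6 genes. Among all genes tested 66.5% did not overlap, 31.9% with both cKO libraries above and 34.6% with both below, against 4 and 2 of the 10 genes. The median log2 fold change was 0.03 over the 10 genes and -0.01 over all genes tested. The number of genes past the threshold in the whole table, 1519 higher and 1750 lower, depended on each library, and was 358 and 519 without Ctrl replicate 1, 633 and 898 without Ctrl replicate 2, 1071 and 1094 without cKO replicate 1 and 995 and 1434 without cKO replicate 2. Among the 10 genes, these 4 settings gave 2 higher and 0 lower, 3 and 1, 3 and 1, and 4 and 2.

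**Figure D1:**
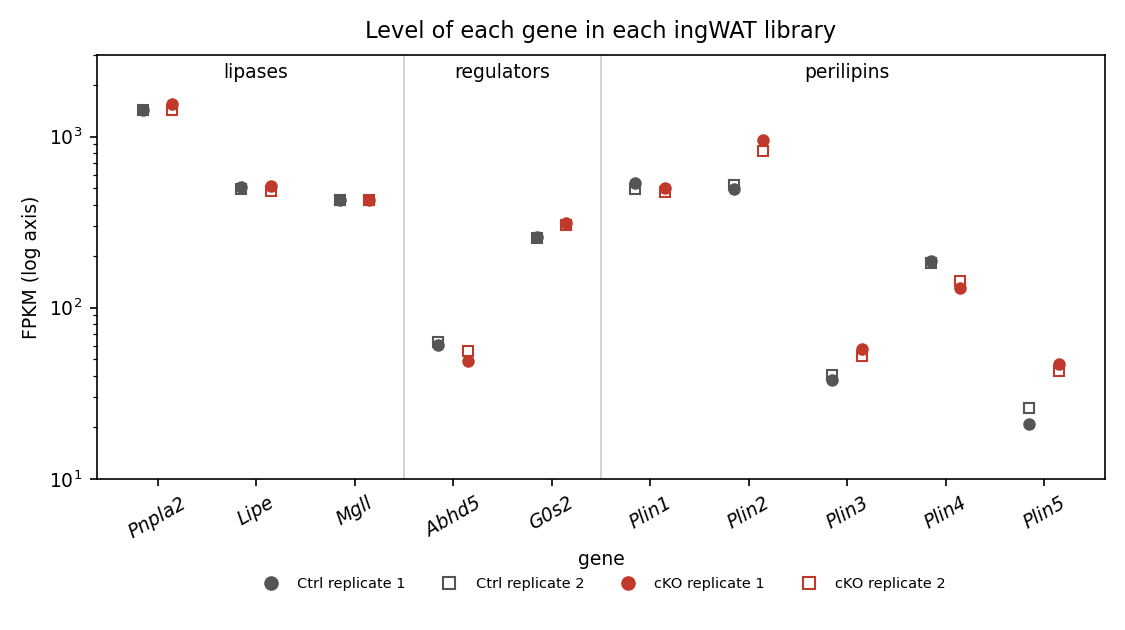
Level of each of the 10 genes in each library, in FPKM on a log axis, with Ctrl in grey and cKO in red and 1 point per library. *Pnpla2* lies highest, at 1429 FPKM or more in every library, and the groups stand apart for *Abhd5*, *G0s2*, *Plin2*, *Plin3*, *Plin4* and *Plin5*.

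*Pnpla2* was the most abundant of the 10 genes in every library and ranked 24 among all genes by mean level. In Ctrl it was followed by *Plin1*, *Plin2* and *Lipe*, whose library values overlapped between 492 and 534 FPKM, then by *Mgll*, *G0s2*, *Plin4*, *Abhd5*, *Plin3* and *Plin5*, each of which lay below the one before in both libraries. In cKO *Plin2* alone took the second place. *Lipe* and *Plin1* overlapped there, and so did *Plin3* and *Abhd5*, while *Plin5* remained the lowest. Together the 10 genes made up 0.81% and 0.813% of the summed FPKM in the Ctrl libraries and 0.91% and 0.852% in the cKO libraries.

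The FPKM values of each lipase overlapped between the genotypes. *Pnpla2* (gene ID 66853, chr7:141455188-141460743, plus strand, mouse build GRCm38.p6, as for all positions here) was at 1438 and 1429 FPKM in Ctrl and at 1542 and 1435 FPKM in cKO. The cKO range covered one of the Ctrl values, and the means were 1434 ± 6.70 and 1489 ± 75.5 FPKM (SD, n = 2 each). The log2 fold change was 0.05 with a 95% interval from -0.14 to 0.24 (limma, adjusted p = 0.671).

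*Lipe* (gene ID 16890, chr7:25379527-25398486, minus strand) was at 510 and 492 FPKM in Ctrl and at 511 and 479 FPKM in cKO, a range that enclosed both Ctrl values. Its log2 fold change was -0.02, with an interval from -0.18 to 0.14 (limma, adjusted p = 0.868). The whole of *Lipe* lies within the lncRNA gene *4732471J01Rik* on the other strand, listed at 3.84 and 4.11 FPKM in Ctrl and 2.14 and 3.05 FPKM in cKO, and whether reads were counted by strand is not stated. *Mgll* (gene ID 23945, chr6:88724412-88828360, plus strand) was at 424.65 and 426.74 FPKM in Ctrl and at 426.76 and 424.43 FPKM in cKO. The groups overlapped almost entirely, and the log2 fold change was -0.00034 with an interval from -0.14 to 0.14 (limma, adjusted p = 0.998). Summed over the 3 lipases, levels were 2373 and 2348 FPKM in Ctrl and 2480 and 2339 FPKM in cKO. After quantile normalization *Lipe* (-0.24) and *Mgll* (-0.21) passed the threshold as lower (limma, adjusted p = 0.0285 each). With libraries scaled to 4 pan-adipocyte genes (*Adipoq*, *Pparg*, *Fabp4* and *Cd36*), all 3 lipases passed as higher. They stood at 0.41 for *Pnpla2*, 0.34 for *Lipe* and 0.36 for *Mgll* (limma, adjusted p = 0.0104, 0.0133 and 0.00543). The median of all genes tested was 0.31 under that scaling. A p that misses the threshold does not show equality, and the furthest bounds of these intervals were -0.18 for *Lipe* and 0.24 for *Pnpla2*.

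The transcripts of the regulators moved in opposite directions. *G0s2* (gene ID 14373, chr1:193272160-193273188, minus strand), the inhibitor, was at 259 and 256 FPKM in Ctrl and at 314 and 304 FPKM in cKO. Both cKO libraries lay above both Ctrl libraries, with means of 257 ± 2.28 and 309 ± 7.10 FPKM (SD, n = 2 each). The fold of the means was 1.20, and the log2 fold change was 0.26 ± 0.059 SE (limma, adjusted p = 0.0169). The call was lost without Ctrl replicate 1 (limma, adjusted p = 0.127), without Ctrl replicate 2 (0.122), without cKO replicate 1 (0.0619) and after quantile normalization (0.0753, with a log2 fold change of 0.15).

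*Abhd5* (gene ID 67469, chr9:122351616-122381524, plus strand), the activator, was at 60.8 and 62.9 FPKM in Ctrl and at 48.5 and 55.6 FPKM in cKO. Both cKO libraries were lower than both Ctrl libraries, and they lay further apart from each other than the Ctrl libraries did (61.8 ± 1.51 and 52.0 ± 4.99 FPKM, SD, n = 2 each). The log2 fold change of -0.25 ± 0.075 SE was just past the threshold (limma, adjusted p = 0.0496), and this was the weakest of the 6 calls. It was lost without Ctrl replicate 1 (-0.27, limma, adjusted p = 0.177), without Ctrl replicate 2 (-0.22, 0.222) and without cKO replicate 1 (-0.15, 0.183), and it was 0.11 when libraries were scaled to 4 pan-adipocyte genes (*Adipoq*, *Pparg*, *Fabp4* and *Cd36*). That scaling moved the median of all genes tested to 0.31, and relative to the median *Abhd5* stood at -0.20, against -0.24 without it. The scaling divides each library by a single factor, so subtracting the median largely undoes it and is no separate check. Of the 4 scaling genes, *Adipoq* (-0.58), *Cd36* (-0.36) and *Pparg* (-0.25) were themselves past the threshold as lower in cKO, and *Fabp4* (-0.25) did not pass.

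Since FPKM are per length, regulator and lipase levels can be set against each other within a library. The *Abhd5* to *Pnpla2* ratio was 0.0422 and 0.0440 in Ctrl and 0.0315 and 0.0387 in cKO, and was lower in both cKO libraries. The *G0s2* to *Pnpla2* ratio was 0.180 and 0.179 in Ctrl and 0.204 and 0.212 in cKO, and was higher in both, by 0.21 in mean log2 ratio and by 0.09 after quantile normalization. Transcripts of the activator relative to the inhibitor, the *Abhd5* to *G0s2* ratio, were 0.235 and 0.246 in Ctrl and 0.154 and 0.183 in cKO, a difference of -0.52 in mean log2 ratio. *Lipe* to *Pnpla2* was 0.355 and 0.344 in Ctrl and 0.331 and 0.334 in cKO, a difference of -0.07 in mean log2 ratio and of -0.31 after quantile normalization. *Mgll* to *Lipe* overlapped between the groups, at 0.832 and 0.867 in Ctrl and 0.835 and 0.886 in cKO. With 2 libraries against 2, the two-sided exact permutation test cannot go below p = 0.33, which is the value for the ratios that did not overlap.

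**Figure D2:**
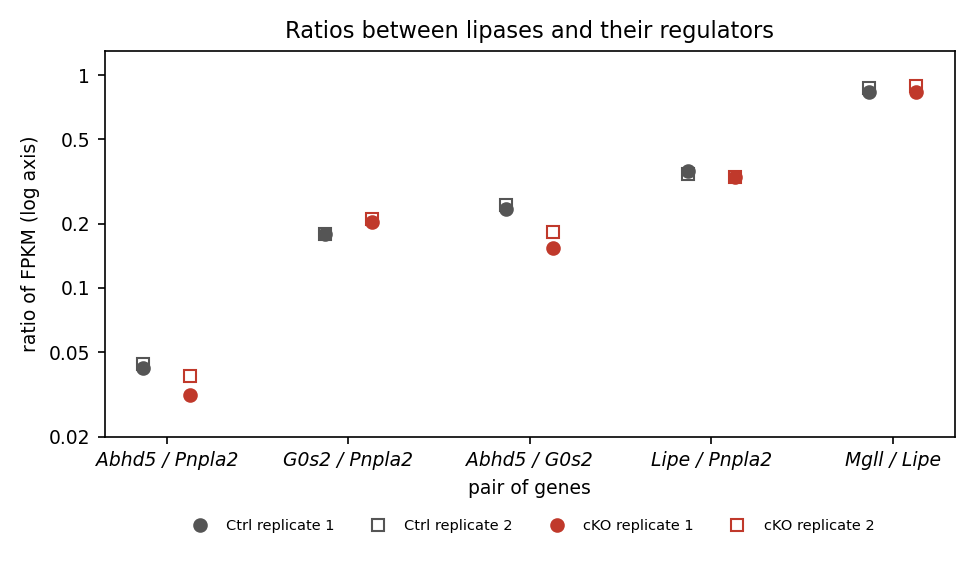
Ratio of FPKM between lipases and their regulators in each library, on a log axis, with Ctrl in grey and cKO in red. The *Abhd5* to *G0s2* ratio was 0.235 and 0.246 in Ctrl and 0.154 and 0.183 in cKO, and the *Mgll* to *Lipe* ratio overlapped between the groups.

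The promoter windows of the regulators are shown because their transcripts moved apart. They are RefSeq sequences of GRCm38.p6 from 250 bases before to 50 bases after the start site, 5′ to 3′ on the strand of the gene, at chr9:122351366-122351665 (plus strand) for *Abhd5* and chr1:193273139-193273438 (minus strand) for *G0s2*. Capitals mark, on either strand, AGGTCA, the half-site of nuclear receptors such as the PPARs, CACGTG, the E-box, and TGACG, part of the cAMP response element bound by CREB.
Abhd5: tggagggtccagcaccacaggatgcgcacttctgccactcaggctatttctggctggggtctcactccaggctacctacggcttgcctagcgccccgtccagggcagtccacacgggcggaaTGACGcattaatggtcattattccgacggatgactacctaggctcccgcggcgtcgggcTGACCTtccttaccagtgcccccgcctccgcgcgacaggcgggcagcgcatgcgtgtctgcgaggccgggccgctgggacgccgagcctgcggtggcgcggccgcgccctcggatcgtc
G0s2: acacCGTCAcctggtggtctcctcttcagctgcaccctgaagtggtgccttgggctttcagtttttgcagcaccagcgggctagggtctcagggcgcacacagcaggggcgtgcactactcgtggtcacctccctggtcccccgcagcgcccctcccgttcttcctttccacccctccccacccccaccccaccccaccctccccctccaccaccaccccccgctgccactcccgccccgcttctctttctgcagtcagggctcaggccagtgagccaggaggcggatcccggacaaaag

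The *Abhd5* window held AGGTCA on the opposite strand, 69 bases before the start site, and TGACG 128 bases before it. The *G0s2* window held TGACG on the opposite strand, 246 bases before the start site. All 10 genes had a window, 13 windows in all since some have more than one start site. AGGTCA was found in *Abhd5*, *Plin2* and *Plin5*, CACGTG in *Lipe*, *Mgll* and *Plin2*, and TGACG in *Mgll*, *Abhd5* and *G0s2*, and no match overlapped another. Of all 32851 RefSeq windows, 16.3% held AGGTCA, 7.15% CACGTG and 20.8% TGACG. A match is a run of letters and not a measured binding site.

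The perilipins diverged. *Plin2*, *Plin3* and *Plin5* rose in cKO, *Plin4* fell and *Plin1*, the main coat protein of adipocyte droplets, did not pass the test. *Plin1* (gene ID 103968, chr7:79721164-79732904, minus strand) was at 534 and 497 FPKM in Ctrl and at 502 and 477 FPKM in cKO. The groups overlapped, and the log2 fold change was -0.07 with an interval from -0.24 to 0.09 (limma, adjusted p = 0.489).

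*Plin2* (gene ID 11520, chr4:86626910-86670217, minus strand), a coat protein made by most cells that store lipid, was at 495 and 524 FPKM in Ctrl and at 949 and 828 FPKM in cKO. Both cKO libraries lay far above both Ctrl libraries, and *Plin2* went from the level of *Plin1* to well above it. The means were 509 ± 20.4 and 888 ± 85.6 FPKM (SD, n = 2 each), a fold of 1.74 and a log2 fold change of 0.80 ± 0.086 SE (limma, adjusted p = 0.00123). This was the largest rise of the 10 genes in FPKM.

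*Plin5* (gene ID 66968, chr17:56111597-56117606, minus strand), a coat protein of oxidative tissues such as heart, muscle and brown fat that tethers droplets to mitochondria, was at 21.02 and 26.04 FPKM in Ctrl and at 46.6 and 42.9 FPKM in cKO. It was the least abundant of the 10 genes and had the largest fold, 1.90, with means of 23.5 ± 3.55 and 44.8 ± 2.62 FPKM (SD, n = 2 each). Its log2 fold change was 0.91 ± 0.101 SE (limma, adjusted p = 0.00132), and 330 of the 12658 genes tested had a change of at least this size in either direction. The Ctrl libraries differed by a coefficient of variation of 15.1%, against 3.64% from counting alone at the estimated depth.

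*Plin3* (gene ID 66905, chr17:56278962-56290511, minus strand), which is found in the cytosol of many cell types and moves onto new droplets, was at 37.9 and 40.4 FPKM in Ctrl and at 57.5 and 52.1 FPKM in cKO. Both cKO libraries were higher, with a log2 fold change of 0.47 ± 0.069 SE (limma, adjusted p = 0.00336). Without Ctrl replicate 1 it was 0.43 and missed the threshold (limma, adjusted p = 0.0544). *Plin4* (gene ID 57435, chr17:56100587-56109948, minus strand), a coat protein abundant in white adipocytes, was at 186 and 181 FPKM in Ctrl and at 130 and 142 FPKM in cKO. Both cKO libraries were lower, with means of 184 ± 3.36 and 136 ± 8.65 FPKM (SD, n = 2 each) and a log2 fold change of -0.43 ± 0.065 SE (limma, adjusted p = 0.00386). Without Ctrl replicate 1 it was -0.41 (limma, adjusted p = 0.0608), and with libraries scaled to the 4 pan-adipocyte genes it was -0.07 (limma, adjusted p = 0.347). Subtracting the median of all genes largely undoes this scaling, and gave -0.38 for *Plin4*, 0.52 for *Plin3*, 0.85 for *Plin2* and 0.95 for *Plin5*.

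**Figure D3:**
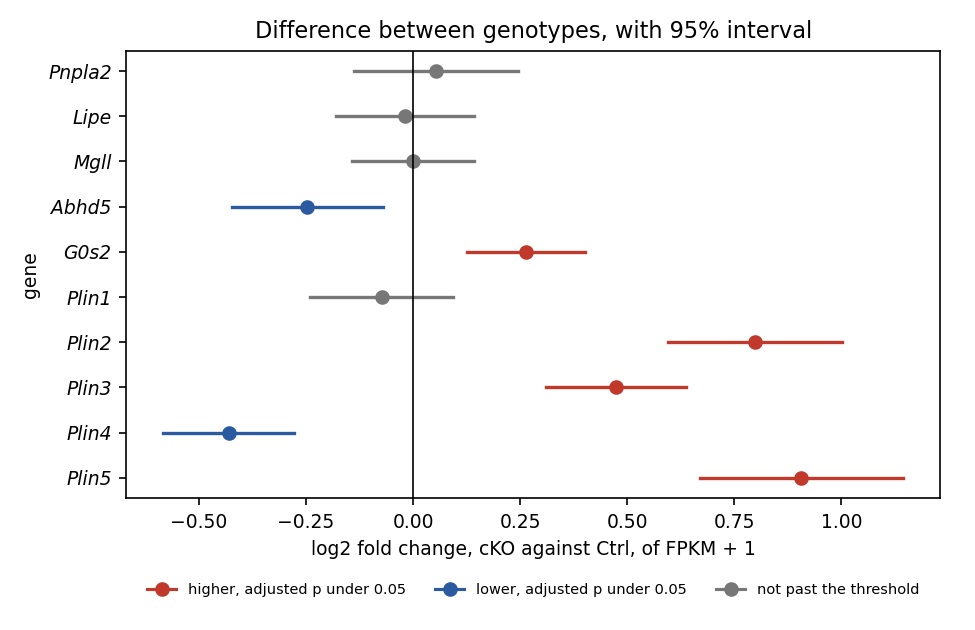
Log2 fold change of each gene, cKO against Ctrl, from log2(FPKM + 1), as points with 95% intervals from limma. Red marks genes higher and blue genes lower at an adjusted p under 0.05, from 0.91 for *Plin5* to -0.43 for *Plin4*. *Abhd5* was at -0.25, and at 0.11 with scaling to 4 pan-adipocyte genes. Subtracting the median of all genes, which largely undoes that scaling, gave -0.20. Grey marks *Pnpla2*, *Lipe*, *Mgll* and *Plin1*, which did not pass.

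The summed FPKM of the 5 perilipins was 1273 and 1268 in Ctrl and 1685 and 1542 in cKO, higher in both cKO libraries by 343 in the mean (exact permutation test, p = 0.33) and by 174 after quantile normalization. The make-up of this sum also differed. *Plin2* made up 38.9% and 41.3% of it in Ctrl and 56.3% and 53.7% in cKO, whereas *Plin1* made up 41.9% and 39.2% in Ctrl and 29.8% and 30.9% in cKO. *Plin4* went from 14.6% and 14.3% to 7.72% and 9.23%. *Plin5* remained a small part of the sum, at 1.65% and 2.05% in Ctrl and 2.77% and 2.78% in cKO, as did *Plin3*, at 2.98% and 3.18% in Ctrl and 3.41% and 3.38% in cKO. The *Plin3* share was higher by 0.316 percentage points in the mean, and by 0.730 after quantile normalization. None of the 5 shares overlapped between the groups, for which the exact permutation test gives its smallest value, p = 0.33.

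**Figure D4:**
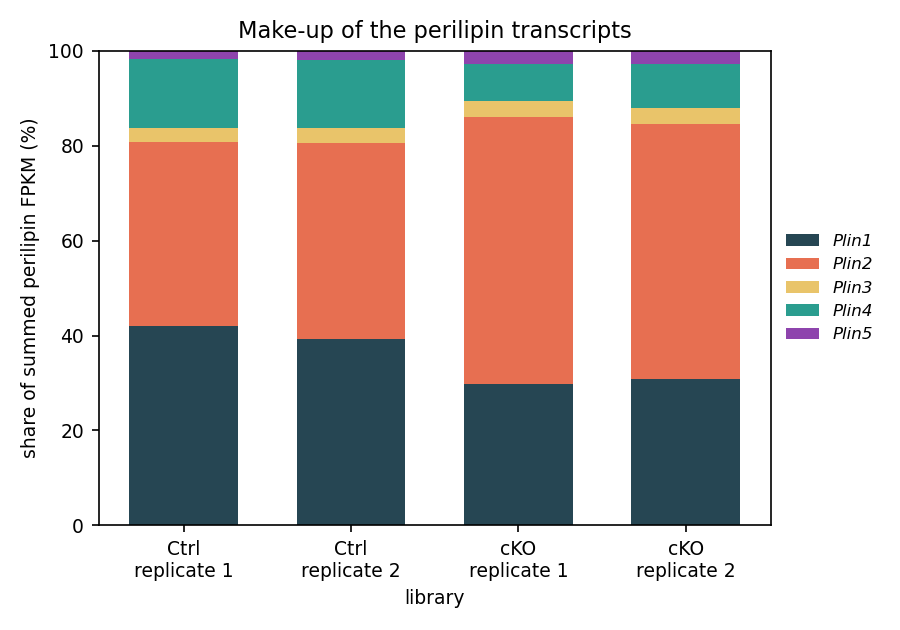
Share of each perilipin in the summed FPKM of the 5 perilipins, in percent, with 1 stacked bar per library. *Plin2* takes 38.9% and 41.3% of the Ctrl bars and 56.3% and 53.7% of the cKO bars, and *Plin1* and *Plin4* take less in both cKO bars than in both Ctrl bars.

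Against *Plin1* in the same library, *Plin2* stood at 0.927 and 1.05 in Ctrl and at 1.89 and 1.74 in cKO. *Plin5* stood at 0.0394 and 0.0524 in Ctrl and at 0.0929 and 0.0900 in cKO, a difference of 1.01 in mean log2 ratio. *Plin3* to *Plin1* was 0.0711 and 0.0812 in Ctrl and 0.115 and 0.109 in cKO. For *Plin4* the ratio was lower in both cKO libraries, at 0.349 and 0.365 in Ctrl and 0.259 and 0.298 in cKO, a difference of -0.36 in mean log2 ratio and of -0.15 after quantile normalization. All 4 ratios separated the genotypes (exact permutation test, p = 0.33 each, its smallest value).

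*Plin4*, *Plin5* and *Plin3* are neighbours on chromosome 17 and share the minus strand. *Plin4* and *Plin5* lie 1648 bases apart and moved in opposite directions, -0.43 and 0.91 on the log2 scale. The stretch from *Plin4* to *Plin3* spans 190 kb and holds 12 annotated genes, of which 10 were tested. Of the 7 tested genes that are not perilipins, *Ticam1*, an adaptor of Toll-like receptor signalling, was higher (7.27 ± 0.502 and 9.21 ± 0.672 FPKM, SD, n = 2 each, log2 fold change 0.30, limma, adjusted p = 0.0367) and *Tnfaip8l1* was lower (2.58 ± 0.0283 and 1.83 ± 0.106 FPKM, SD, n = 2 each, log2 fold change -0.34, limma, adjusted p = 0.0447). The other 5 did not pass. This stretch was picked after the perilipin values were seen. *Plin4* also overlaps *Hdgfl2* on the other strand by 19 bases. Among the other genes described, *Mgll* overlaps the lncRNA gene *Gm26588* and *Plin2* the pseudogene *Gm12551*, neither of which was analysed here.

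**Figure D5:**
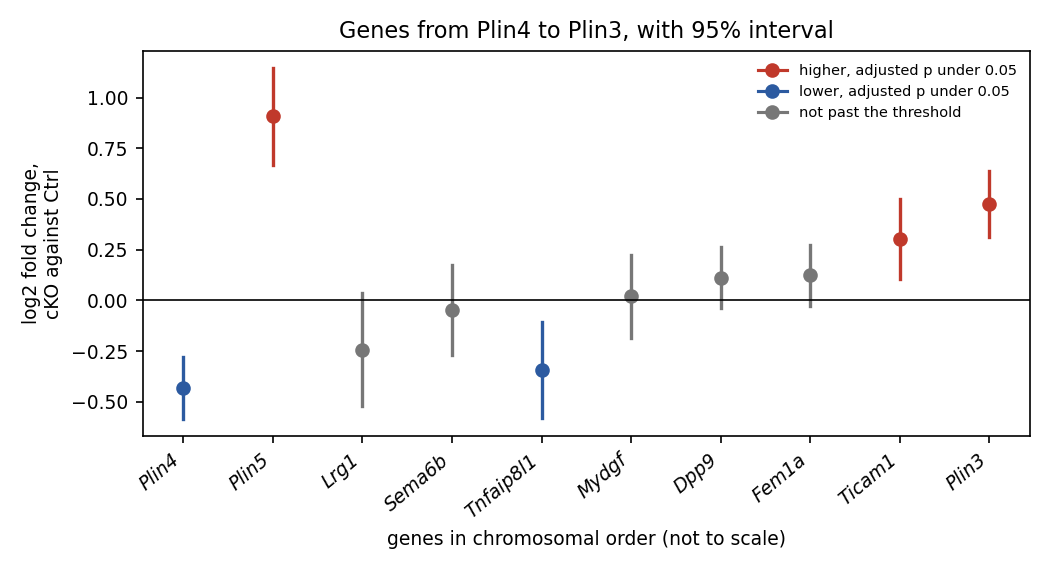
Log2 fold change, cKO against Ctrl, with 95% intervals from limma, for the 10 tested genes from *Plin4* to *Plin3* in their order on chromosome 17, not drawn to scale. *Plin4* at -0.43 and its neighbour *Plin5* at 0.91 lie on opposite sides of 0, and 5 of the 7 genes that are not perilipins did not pass the threshold.

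The promoter windows of *Plin2* and *Plin5*, which had the largest fold changes of the 10 genes, and of *Plin4*, the neighbour of *Plin5* that fell, are shown in the same way. They lie at chr4:86670010-86670309 for *Plin2*, chr17:56117499-56117798 for *Plin5* and chr17:56109733-56110032 for *Plin4*, all GRCm38.p6 and given 5′ to 3′ on the minus strand, with the same motifs in capitals.
Plin2: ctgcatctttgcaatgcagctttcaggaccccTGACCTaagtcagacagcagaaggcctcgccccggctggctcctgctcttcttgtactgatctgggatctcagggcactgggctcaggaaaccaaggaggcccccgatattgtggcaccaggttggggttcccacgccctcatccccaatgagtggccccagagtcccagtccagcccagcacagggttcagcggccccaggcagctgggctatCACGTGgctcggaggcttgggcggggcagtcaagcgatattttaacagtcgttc
Plin5: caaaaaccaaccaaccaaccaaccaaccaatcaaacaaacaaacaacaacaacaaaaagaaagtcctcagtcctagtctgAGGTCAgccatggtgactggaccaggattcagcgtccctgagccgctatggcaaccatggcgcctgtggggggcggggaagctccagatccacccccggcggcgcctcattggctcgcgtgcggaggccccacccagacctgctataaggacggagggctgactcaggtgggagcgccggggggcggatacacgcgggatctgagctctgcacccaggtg
Plin4: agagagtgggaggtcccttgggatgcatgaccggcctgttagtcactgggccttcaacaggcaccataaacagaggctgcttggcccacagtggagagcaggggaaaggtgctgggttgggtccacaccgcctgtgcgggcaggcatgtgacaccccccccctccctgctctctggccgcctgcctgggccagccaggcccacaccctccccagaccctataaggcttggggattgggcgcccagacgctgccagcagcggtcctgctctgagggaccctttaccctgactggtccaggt

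In the *Plin2* window AGGTCA stood on the opposite strand 218 bases before the start site and CACGTG 4 bases before it. In the *Plin5* window AGGTCA stood 170 bases before the start site, and the window of a second *Plin5* start held another copy 14 bases after it. The *Plin4* window held none of the motifs searched, which says only that these letters are not in it. The windows of *Plin1* and *Plin3* held none either.

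By the smallest root-mean-square distance between centred log2(FPKM + 1) values over the 4 libraries, among 6204 genes with a mean of at least 10 FPKM, the genes most like *Plin5* were *Hadhb* (distance 0.0180), *Hadha* (0.0190) and *Lace1* (0.0221). *Hadha* and *Hadhb* encode the subunits of the mitochondrial enzyme complex that oxidizes long-chain fatty acids, and *Lace1* encodes a mitochondrial ATPase. *Hadhb* had means of 622 ± 97.7 FPKM in Ctrl and 1180 ± 85.8 FPKM in cKO (SD, n = 2 each), and, as for *Plin5*, Ctrl replicate 1 was the lowest library and cKO replicate 1 the highest. For *Pnpla2*, the nearest genes were *Smim11* (0.00476), *Slc25a44* (0.00847) and *Ube2v1* (0.00873), each of them highest in cKO replicate 1. Distances over 4 libraries that fall into 2 groups are a description and carry no test.

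The other genes of lipolysis were counted from 3 lists. Among 39 genes of lipolysis signalling, from receptors to protein kinase A and the insulin pathway, 38 were tested, and 4 were higher, 10 lower and 24 not past the threshold, with a median log2 fold change of -0.08. *Adcy3*, an adenylyl cyclase that makes cAMP, rose from 13.3 ± 1.33 to 26.9 ± 2.73 FPKM (SD, n = 2 each, log2 fold change 0.97, limma, adjusted p = 0.000834). *Adrb1*, a β-adrenergic receptor, rose from 3.09 ± 0.424 to 5.97 ± 0.516 FPKM (log2 fold change 0.77, limma, adjusted p = 0.00279). *Gnas* and *Prkar2b*, not among the largest changes of the list, rose as well. The 10 lower genes were *Adcy5*, another adenylyl cyclase (-0.35, limma, adjusted p = 0.0157), *Gnai1*, *Ptger3*, *Hcar1*, *Tshr*, *Npr1*, *Irs1*, *Pik3cb*, *Pik3r1* and *Adrb3*. *Pik3r1*, a regulatory subunit of phosphoinositide kinase in insulin signalling, fell from 61.1 ± 4.94 to 25.3 ± 8.54 FPKM (log2 fold change -1.27, limma, adjusted p = 0.00389), a call lost without Ctrl replicate 1 (-1.19, 0.0677) and without the filter on low values (0.0610). *Adrb3*, the main β-adrenergic receptor of mouse adipocytes, named here after its value was seen, fell from 159 ± 10.8 to 118 ± 6.34 FPKM (log2 fold change -0.43, limma, adjusted p = 0.00568). With scaling to the 4 pan-adipocyte genes the list had 19 higher and 4 lower, beside 8089 higher and 629 lower of all 12660 genes tested under it.

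Among 22 other acylglycerol hydrolases and their relatives, 19 were tested, and 3 were higher, 5 lower and 11 not past the threshold, with a median of 0.10. Of all genes tested 12.0% were higher and 13.8% lower. *Lipa*, the acid lipase of lysosomes, rose from 38.9 ± 2.22 to 68.1 ± 4.77 FPKM (SD, n = 2 each, log2 fold change 0.79, limma, adjusted p = 0.000671), and *Ddhd2*, a lipase of intracellular membranes, rose from 37.2 ± 1.97 to 57.1 ± 2.79 FPKM (log2 fold change 0.60, limma, adjusted p = 0.00125). *Ces1f*, a carboxylesterase, fell from 139 ± 4.21 to 85.6 ± 7.72 FPKM (log2 fold change -0.70, limma, adjusted p = 0.00114). The lower count was 2 without either Ctrl library and 3 without either cKO library, and the higher count was 2 without any one library. Scaling to the pan-adipocyte genes gave 13 higher and 1 lower, beside 8089 higher and 629 lower of all 12660 genes tested under it.

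Of 13 transcription factors with a known role at lipase or perilipin genes, all tested, 3 were higher, 5 lower and 5 not past the threshold, with a median of -0.10. Of all genes tested 12.0% were higher and 13.8% lower. *Ppara*, a nuclear receptor that governs fatty acid oxidation genes, rose from 8.32 ± 1.81 to 18.1 ± 1.80 FPKM (SD, n = 2 each, log2 fold change 1.04, limma, adjusted p = 0.00206). *Ppargc1a*, a coactivator of mitochondrial genes that also stands in the brown or beige marker list, rose from 2.07 ± 0.134 to 4.46 ± 0.148 FPKM (log2 fold change 0.83, limma, adjusted p = 0.00133). *Egr1*, an immediate early factor known to repress *Pnpla2*, fell from 17.5 ± 1.75 to 6.56 ± 1.10 FPKM (log2 fold change -1.30, limma, adjusted p = 0.000617), beside a *Pnpla2* change of 0.05. *Pparg*, *Cebpa*, *Rxra* and *Nr1h3* also fell and *Cebpb* rose. *Pparg* and *Cebpa* also stand in the white or pan-adipocyte marker list, and *Pparg* is among the genes used for the scaling below. Under that scaling, 8089 of all 12660 genes tested were higher and 629 lower. The lower count was 1 without Ctrl replicate 1, 2 without Ctrl replicate 2 and without cKO replicate 1, 3 without cKO replicate 2, and 1 with scaling to the pan-adipocyte genes, where 7 were higher.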

How the data were processed

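Single-end RNA-seq of poly-A selected ingWAT RNA from 2 Ctrl and 2 cKO libraries was used, grouped by the labels. The authors deposited one FPKM value per gene and library. Per the submitters' processing notes HISAT2 2.0.4, RSEM 1.2.12 and build mm10 were used, with their roles not given. Filters and strand of counting are not given in the sources used here. Values were tested with limma 3.58.1 in R 4.3.3 on log2(FPKM + 1) (pseudocount 1, eBayes with trend, mean FPKM of at least 1, Benjamini-Hochberg over 12658 genes, threshold 0.05). Ratios and shares were compared with two-sided exact permutation tests. Depth was estimated from the FPKM steps of 314 genes of short RNAs, at which 85.5 to 91.4% of low values were whole reads within 0.1. Gene IDs were matched to RefSeq GRCm38.p6 (18977 of 19030). The 10 genes and the lists were chosen with earlier results of these data known. From each list the 3 genes past the threshold with the largest fold change and groups that do not overlap were named, and for *Pnpla2* and *Plin5*, the gene of the 10 with the largest change, the 3 nearest genes. Some other list genes past the threshold were also named, outside this rule. Alternatives were another pseudocount, other filters and scalings, eBayes without trend, a replicate block and leaving out each library.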

Additional observations from a re-analysis of the deposited data

How the results depend on the processing

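Of the 120 log2 fold changes of the 10 genes under 12 alternatives, 93 kept their sign and their side of the threshold, although the filters, the missing trend and the block leave a fold change as it is. *Plin2* and *Plin5* were past the threshold in all 12, *Plin3* in 11, *Plin4* in 10, *G0s2* in 8 and *Abhd5* in 4 (limma, adjusted p from 0.0255 to 0.222). Without the filter on low values 667 genes were higher and 1095 lower (37.9% of calls higher, against 46.5%), and with scaling to 4 pan-adipocyte genes 8089 and 629 (92.8% higher). Leaving out 1 library gave 358 to 1071 higher and 519 to 1434 lower, and among the 10 genes 2 to 4 higher and 0 to 2 lower. Among the 10 genes, 1 was lower with a pseudocount of 0.1, without the filter and without a trend, since *Abhd5* was lost, 4 were lower after quantile normalization, which called *Lipe* (-0.24), *Mgll* (-0.21) and *Plin1* (-0.32) lower and lost *Abhd5*, and 0 were lower and 8 higher with scaling to pan-adipocyte genes. The cause was not tested. The rise of the summed perilipins was 174 FPKM after quantile normalization.

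Signs turned with scaling to pan-adipocyte genes for *Lipe* (0.34), *Mgll* (0.36), *Abhd5* (0.11) and *Plin1* (0.29), where the median of all genes was 0.31. Subtracting this median, which largely undoes the scaling, they stood at 0.03, 0.05, -0.20 and -0.02. Near 0, signs also turned for *Lipe* (0.0075 without Ctrl replicate 1, 0.028 without cKO replicate 2). Without cKO replicate 1 *Lipe* was at -0.065. The same held for *Mgll* (0.0095 with median-of-ratios scaling, 0.0032 without Ctrl replicate 2, 0.0036 without cKO replicate 2). *Mgll* was at -0.0043 without cKO replicate 1. With the replicate number as a block, 1594 genes were higher and 1789 lower, and the calls of the 10 genes did not change, while the block left 3 of the other acylglycerol hydrolases lower. Same-numbered libraries deviated from their group means with a correlation of 0.0148 over 12658 genes, and the labels give them no shared source. Of the 14 ratios and shares, 9 moved by more than the spread between replicates under quantile normalization. Among them, the difference in log2 ratio went from -0.07 to -0.31 for *Lipe* to *Pnpla2*. It went from 0.56 to 0.82 for *Plin3* to *Plin1*, and from 1.01 to 1.26 for *Plin5* to *Plin1*. Counts under each alternative for the 3 gene lists were added after seeing the data. With 2 libraries per group, and FPKM rather than counts, the spread within a group rests on a single difference.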
